A study of Homo sapiens with 16 samples.

Results

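FLASH siRNA was compared with SLBP siRNA in PANC-1 cells that received no TGFb. PANC-1 is an established human cell line from a pancreatic ductal carcinoma. The comparison takes 4 of the 16 libraries of the study, FLASH siRNA replicates 1 and 2 and SLBP siRNA replicates 1 and 2, which the sample labels name as Flash KD and Slbp KD. They are described over the 17743 genes kept by a filter on low counts, out of 58219 in the table. The other libraries held non-transfected cells, NPAT siRNA cells and the same groups after TGFb at 100 ng/ml for 48 h. The titles give day 3, and the study's design text gives 4 days after transfection. All 4 libraries came from transfected cells, so transfection is common to both sides. Against non-transfected cells, effects of transfection cannot be told apart from effects of an siRNA. No group is labelled as a non-targeting siRNA, and the siRNA sequences are not given in the sources used here, so effects of an siRNA on genes other than its target cannot be told apart from effects of losing the target.

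FLASH, the protein of the gene CASP8AP2, and SLBP, the stem-loop binding protein, act in the same step of histone messenger RNA production. Replication-dependent histone genes are transcribed in S phase and their transcripts end just after a conserved stem-loop instead of in a poly(A) tail. SLBP binds that stem-loop and stays on the transcript for export, translation and decay. FLASH joins the U7 small nuclear ribonucleoprotein and helps to recruit the nuclease that cuts the precursor, and it is also found with NPAT at histone locus bodies. When this cut is missed, transcription can run on to a later poly(A) site.

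Each group had 2 libraries. Nothing in the labels says that these were separate cultures, so p-values measure only the spread between libraries of a group, which may be technical. The fit estimated that spread over all 16 libraries of the study and not from these 4 alone. The 4 libraries held 23.8 to 30.2 M counts, and mitochondrial genes took 10.3% to 11.6% of them. Levels below are library-scaled CPM. These are the counts of a gene per 1e6 counts of the kept genes of its library, that total being multiplied by a scaling factor (TMM). Log2 fold changes are FLASH over SLBP siRNA with their standard error (SE). P-values come from edgeR's quasi-likelihood test. They were adjusted over the whole table by Benjamini-Hochberg, and a gene is called past the threshold where the adjusted p is under 0.05. The SLBP siRNA libraries were less alike than the FLASH siRNA libraries. Over 14344 genes with a mean of at least 1 CPM, the median absolute log2 difference between replicates was 0.28 for SLBP siRNA and 0.12 for FLASH siRNA, against 0.30 between the means of both groups. The epithelial genes of the line were present in all 4 libraries, with KRT8 at 516 to 740 CPM and EPCAM at 43.6 to 105 CPM. Of the defining acinar and endocrine markers, CTRB1, CELA3A and INS were at 0 in all of them, and PRSS1, CPA1, PNLIP, GCG, SST and CHGA stood at no more than 0.405 CPM. The summed acinar list was 7.52 to 7.88 CPM after FLASH siRNA, 2.44 to 3.28 CPM after SLBP siRNA and 2.75 to 3.16 CPM in non-transfected cells, with the trypsinogen PRSS3 higher after FLASH siRNA (2.48). The endocrine list was 25.1 to 25.3, 27.9 to 34.9 and 26.4 to 33.1 CPM. Of its 6 tested genes 2 (33.3%) were higher and 1 (16.7%) lower after FLASH siRNA (median 0.79), against 15.3% and 10.8% of all genes. The lower one was the granule protein CHGB (-1.10).

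The targeted genes separated both groups. SLBP (chromosome 4, 1692800 to 1712555, GRCh38) stood at 90.1 and 84.2 CPM after FLASH siRNA and at 4.24 and 3.53 CPM after SLBP siRNA. The groups were far apart, with a log2 fold change of 4.48 (SE 0.13, adjusted p = 1.65e-09), and SLBP siRNA cells kept 4.46% of the level of FLASH siRNA cells. CASP8AP2 (chromosome 6, 89829894 to 89874436) stood at 10.3 and 13.1 CPM after FLASH siRNA and at 44.8 and 45.9 CPM after SLBP siRNA. That difference was -1.95 (SE 0.17, adjusted p = 4.62e-05), which left FLASH siRNA cells with 25.8% of the CASP8AP2 level of SLBP siRNA cells. The SLBP transcript was therefore left at a smaller share than the FLASH transcript, and protein was not measured. NPAT, the activator of histone gene transcription, stood at 55.7 and 47.1 CPM against 43.4 and 41.2 CPM, and its difference did not pass (0.28, SE 0.15, adjusted p = 0.18). Of 32 factors of histone transcript processing and transcription, both targets included, 4 (12.5%) were higher and 5 (15.6%) lower. These shares are near the 15.3% and 10.8% of all genes, and 1 call in each direction is a target. The counts moved, with 1 and 2 higher without FLASH siRNA replicates 1 and 2 and 3 lower without FLASH siRNA replicate 1 or SLBP siRNA replicate 2. The cap-binding protein NCBP2 was lower at 114 and 127 CPM against 182 and 167 CPM (-0.53, SE 0.09, adjusted p = 0.00173).

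FLASH and SLBP siRNA cells differed in 4642 genes, 26.2% of those tested. Of these, 2720 (15.3%) were higher and 1922 (10.8%) were lower after FLASH siRNA than after SLBP siRNA. The larger differences leaned to the FLASH side, with 1460 genes at least 2-fold higher (8.23%) and 392 at least 2-fold lower (2.21%). The median log2 fold change of all genes was 0.01. The counts depended on single libraries. Without FLASH siRNA replicate 1 the fit called 1227 genes higher and 638 lower, and without FLASH siRNA replicate 2 it called 1761 and 938, totals of 1865 and 2699. Without SLBP siRNA replicate 2 the count of lower genes was 1233, and a fit to the 4 libraries alone called 1633 genes.

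**Figure D1:**
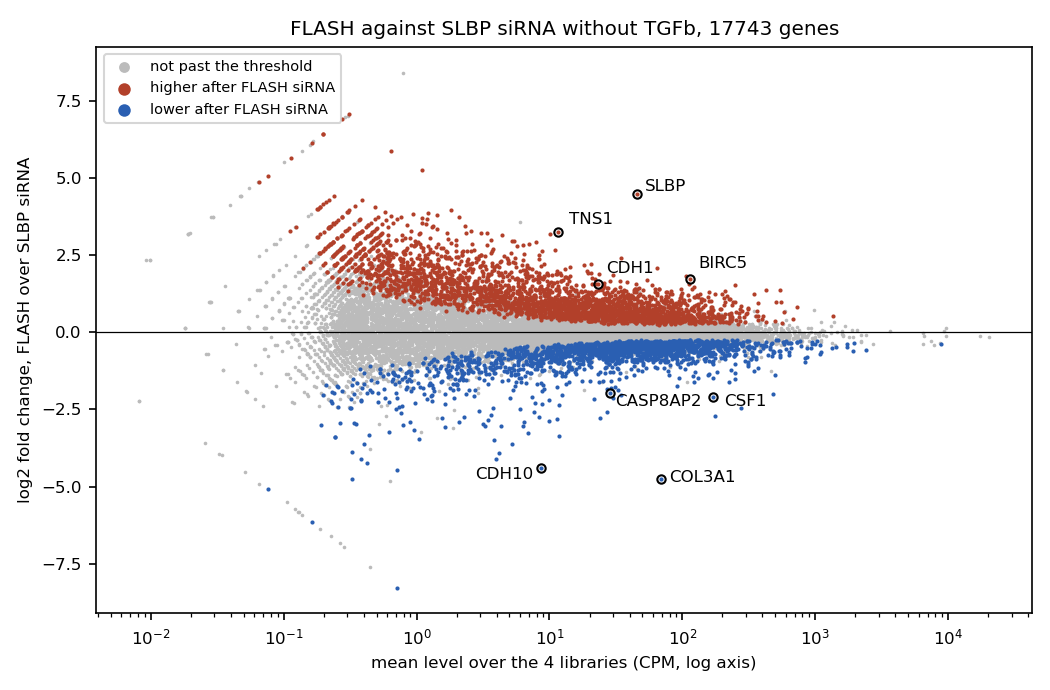
Log2 fold change of each tested gene (FLASH over SLBP siRNA, vertical axis) against its mean level over the 4 libraries (CPM, log axis). Red points are the 2720 genes higher and blue points the 1922 genes lower after FLASH siRNA at an adjusted p under 0.05, grey points did not pass, and 8 genes described in the text are circled, with SLBP at 4.48 and COL3A1 at -4.77.

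The TGFb-treated cells gave the same comparison in 4 other libraries. There, 2311 genes differed (13%), 1472 higher (8.3%) and 839 lower (4.73%), and leaving out single libraries of these groups took the total to between 420 and 1519. Of the 4642 genes called without TGFb, 4436 (95.6%) differed in the same direction with TGFb, while 52.3% of all tested genes were above 0 there. The calls shared between both settings were 1211 of the higher genes, which is 44.5% of those called without and 82.3% of those called with TGFb. For the lower genes they were 622, which is 32.4% of those called without and 74.1% of those called with TGFb. Genes called in opposite directions numbered 13 and 1. Across the 14344 genes of at least 1 CPM, the log2 fold changes without and with TGFb had a Pearson r of 0.753, given as a description because genes are not independent replicates.

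Replication-dependent histone transcripts, the common target of both factors, were high after both siRNAs. They are measured here in poly(A)-selected RNA, so the levels are those of transcripts with a poly(A) tail and not of all histone transcripts. Summed over the 70 genes of the list, their level per transcript length (TPM) was 2463 and 2373 after FLASH siRNA, 2646 and 3020 after SLBP siRNA, and 345.8 and 368.3 in non-transfected cells. Both siRNA groups lay far above the non-transfected libraries, and the SLBP siRNA libraries lay above the FLASH siRNA libraries. Of the 39 members tested, 37 were higher than in non-transfected cells after FLASH siRNA (median 3.44) and 37 after SLBP siRNA (median 3.52), where the share of all genes higher was 20.8% and 15.1%. These counts share the non-transfected libraries, and members silent in those cells entered the test only through the siRNA groups. Reads of near-identical histone genes were divided among them by the authors' counting, so the values of single paralogs are uncertain.

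The sequences below show the stem-loop that SLBP binds, for histone genes that were lower, higher or alike after FLASH siRNA. A search of GENCODE release 29 transcripts for the 16-base stem-loop, with 6 base pairs in the stem and a loop of 4 bases, found it in 23 of the 39 members tested. Capitals mark the stem-loop, and up to 5 bases on each side are in lower case. All are on GRCh38 and are written 5′ to 3′ on the strand of the gene.
HIST1H2AC, chromosome 6, 26124664 to 26124689, plus strand: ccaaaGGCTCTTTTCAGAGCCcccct
HIST1H2BD, chromosome 6, 26158582 to 26158607, plus strand: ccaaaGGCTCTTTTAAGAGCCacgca
HIST1H2BN, chromosome 6, 27839085 to 27839110, plus strand: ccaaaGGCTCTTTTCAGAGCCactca
HIST4H4, chromosome 12, 14770719 to 14770744, minus strand: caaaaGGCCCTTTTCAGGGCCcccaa
HIST1H4H, chromosome 6, 26285126 to 26285151, minus strand: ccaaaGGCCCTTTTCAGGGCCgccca
HIST2H2BE, chromosome 1, 149886183 to 149886208, minus strand: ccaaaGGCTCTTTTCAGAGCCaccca

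HIST1H2AC, HIST1H2BN and HIST2H2BE carried the identical 16 bases, which 12 of the 23 genes shared, and HIST4H4 and HIST1H4H carried another form. In 19 of the 23 genes an annotated transcript went on for 100 bases or more past the stem-loop, 1128 bases in the longest HIST1H2AC transcript and 377 in HIST1H2BN. HIST1H2BD was not among them, as its transcript with the stem-loop, 496 bases long, went on for 39. The deposited mean transcript length of HIST1H2BD was 720 to 728 bases in the 4 libraries, so its counts were not all on that transcript. The letters of the stem-loop alone did not sort the genes, because HIST1H2AC was lower and HIST1H2BN higher after FLASH siRNA with the same 16 bases.

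Between both siRNAs, single histone genes moved in either direction, 2 of 39 higher and 5 of 39 lower after FLASH siRNA, shares of 5.13% and 12.8% against 15.3% and 10.8% of all genes. The median of the list was -0.13. HIST1H2AC, an H2A gene, stood at 113 and 110 CPM after FLASH siRNA, at 246 and 215 CPM after SLBP siRNA, and at 18.6 and 21.6 CPM in non-transfected cells. Both SLBP siRNA libraries were higher (-1.04, SE 0.13, adjusted p = 0.000235), and with TGFb the difference was -0.89 (adjusted p = 0.0014). HIST1H2BN, an H2B gene, went the other way, with 31.6 and 27.8 CPM after FLASH siRNA against 16.6 and 13 CPM after SLBP siRNA (1.00, SE 0.18, adjusted p = 0.00188). These 2 calls held under every alternative tried.

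The other histone calls were lost when some single libraries were left out, which leaves a single library in that group. HIST3H2BB (-1.38), HIST1H2BE (-1.24), HIST2H2BF (-1.04) and HIST1H2BD (-0.74) were lower and HIST4H4 (0.96) was higher. Without SLBP siRNA replicate 2 the values were -1.004, -0.66, -0.89 and -0.56 for these 4 lower genes, with adjusted p of 0.123, 0.265, 0.0767 and 0.159. Without FLASH siRNA replicate 1, HIST4H4 was at 0.77 (adjusted p = 0.118), HIST1H2BE at -1.07 (adjusted p = 0.186), HIST2H2BF at -0.91 (adjusted p = 0.115) and HIST1H2BD at -0.64 (adjusted p = 0.179). HIST3H2BB and HIST1H2BE were also lost without FLASH siRNA replicate 2 (-1.10 and -1.47), as was HIST1H2BD (-0.87), and HIST4H4 was lost without SLBP siRNA replicate 1 (0.77). Over the list, the count of lower members was 6 without SLBP siRNA replicate 1, 1 without SLBP siRNA replicate 2, and 2 without either FLASH siRNA replicate. The count of higher members was 4 without SLBP siRNA replicate 2, and 1 without SLBP siRNA replicate 1 or FLASH siRNA replicate 1.

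The histone gene of highest mean CPM, HIST1H4H, stood at 216 and 210 CPM after FLASH siRNA and at 216 and 226 CPM after SLBP siRNA, values that overlapped (-0.05, SE 0.20, adjusted p = 0.874). HIST1H2BK stood at 119 and 121 CPM against 136 and 127 CPM (-0.13, SE 0.12, adjusted p = 0.436). The linker histone HIST1H1C stood at 155 and 134 CPM against 150 and 247 CPM, where the second SLBP siRNA library set the difference (-0.46, SE 0.20, adjusted p = 0.11). It was -0.06 without SLBP siRNA replicate 2 and passed at -0.77 without SLBP siRNA replicate 1.

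**Figure D2:**
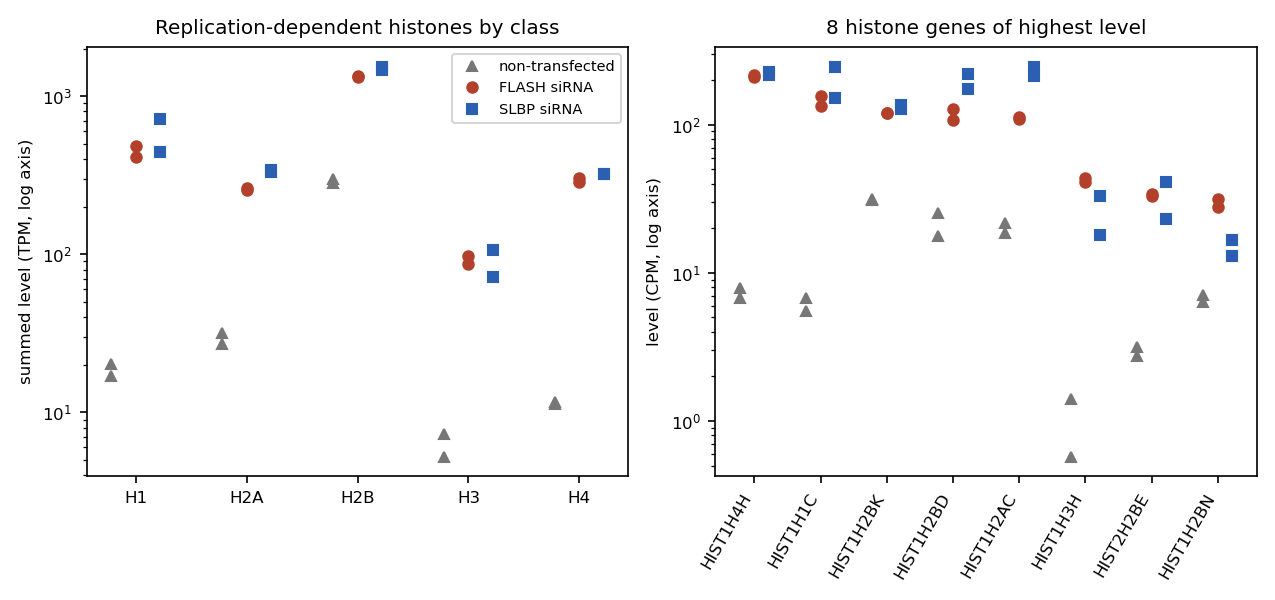
Histone levels in each library without TGFb, as triangles for non-transfected cells, circles for FLASH siRNA and squares for SLBP siRNA. The left panel gives TPM summed over each class of replication-dependent histone genes and the right panel CPM of the 8 histone genes of highest level, both on log axes; both siRNA groups lie above the non-transfected libraries in all of them, and HIST1H2AC separates SLBP siRNA (246 and 215 CPM) from FLASH siRNA (113 and 110 CPM).

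Cell cycle transcripts were the gene groups that separated the 2 siRNAs most evenly. Of 53 S phase and E2F genes tested, 50 were higher and 0 lower after FLASH siRNA (median 0.93), and of 42 G2 and M phase genes 40 were higher and 0 lower (median 0.98), against 15.3% and 10.8% of all genes. The S phase list holds SLBP itself, the target. The exceptions were POLA1 (0.39, adjusted p = 0.0605), POLD3 (0.21) and CCNE1 (-0.16) in the first list, and UBE2C (0.84, adjusted p = 0.0647) and CDC25B (0.25) in the second. Leaving out single libraries gave 42 to 49 higher S phase genes and 28 to 42 higher G2 and M phase genes, with 0 lower each time.

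Thymidine kinase TK1, which makes a DNA precursor, stood at 182 and 154 CPM after FLASH siRNA, at 63.6 and 50.3 CPM after SLBP siRNA and at 63 and 53.4 CPM in non-transfected cells. The FLASH siRNA libraries lay above both other groups, and the difference was 1.56 (SE 0.21, adjusted p = 0.00042). RRM2, a subunit of ribonucleotide reductase, showed the same arrangement at 325 and 273 CPM against 122 and 113 CPM (1.34, adjusted p = 0.000807). CDC45, part of the replicative helicase, stood at 30.2 and 23.1 CPM against 9.58 and 9.11 CPM (1.51, SE 0.25, adjusted p = 0.00133). The transcription factor E2F1, which drives S phase genes, stood at 65.8 and 62.4 CPM against 23.4 and 28.8 CPM (1.30, adjusted p = 0.0006).

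For some mitotic genes the level in non-transfected cells lay between those of both siRNAs. BIRC5, the survivin of the chromosomal passenger complex, stood at 181 and 169 CPM after FLASH siRNA, at 129 and 112 CPM in non-transfected cells, and at 60.3 and 46.2 CPM after SLBP siRNA. The 3 groups did not overlap, and FLASH exceeded SLBP siRNA by 1.72 (SE 0.24, adjusted p = 0.000494). Topoisomerase TOP2A ran the same way at 456 and 514, 333 and 290, and 208 and 203 CPM (1.24 for FLASH over SLBP, adjusted p = 0.000299). The kinesins KIFC1 and KIF20A, which act on the spindle, differed by 1.38 and 1.35 (adjusted p = 0.000413 and 0.000179), and the mitotic kinase CDK1 by 1.30 (adjusted p = 0.000984). Against non-transfected cells, 36 S phase and 20 G2 and M phase genes were higher and 0 of either lower after FLASH siRNA (medians 0.55 and 0.55). Of all genes, 20.8% were higher and 12.9% lower there. After SLBP siRNA 1 and 0 were higher and 19 and 20 lower (medians -0.40 and -0.51), where 15.1% of all genes were higher and 10.8% lower. Both comparisons share the non-transfected libraries and each siRNA group enters the comparison between siRNAs, so the 3 sets of values are not independent.

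With TGFb the same lists had 19 higher and 1 lower S phase genes (median 0.44) and 33 higher and 0 lower G2 and M phase genes (median 0.84), against 8.3% and 4.73% of all genes. The lower one was CCNE1, cyclin E1 (-0.96, adjusted p = 0.0294), which did not pass without TGFb. In these bulk libraries, more cells in a phase and more of a transcript per cell cannot be told apart.

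The promoters of the cell cycle genes were searched for short sequence motifs. RefSeq promoter entries (GRCh38.p14) were found for 43 of the 53 S phase and 36 of the 42 G2 and M phase genes, and the 250 bases before the start were searched on both strands. The E2F motif TTTCCCGC or TTTGGCGC was present in 25.5% of 55 S phase promoters, in 4.44% of 45 G2 and M phase promoters and in 2.7% of the 17061 promoters of tested genes (1.93% of all 35116 promoters of the table). The cell cycle homology region TTTGAA was present in 48.9% of the G2 and M phase promoters, in 3.64% of the S phase promoters and in 9.15% of those of tested genes (13.3% of all). The NF-Y box CCAAT was present in 75.6%, 54.5% and 32.4% in the same order (32% of all). A match is a description of these letters and not evidence of binding, and the lists were drawn up from known cell cycle genes. The promoters of an S phase gene and of 2 mitotic genes are shown with their matches in capitals, all on GRCh38.p14 and 5′ to 3′ on the strand of the gene. They were chosen for their matches after the values had been seen. The promoter entries of the S phase genes CDC45, TK1 and ASF1B held no E2F match. Another CDK1 entry, not shown, held 4 matches.
E2F2, chromosome 1, 23531234 to 23531483, minus strand, E2F motif: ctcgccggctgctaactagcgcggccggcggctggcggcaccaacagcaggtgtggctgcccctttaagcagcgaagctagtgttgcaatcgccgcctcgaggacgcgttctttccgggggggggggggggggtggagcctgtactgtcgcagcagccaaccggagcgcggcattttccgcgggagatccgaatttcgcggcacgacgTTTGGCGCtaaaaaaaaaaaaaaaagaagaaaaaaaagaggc
KIF20A, chromosome 5, 138178862 to 138179111, plus strand, CCAAT on the other strand: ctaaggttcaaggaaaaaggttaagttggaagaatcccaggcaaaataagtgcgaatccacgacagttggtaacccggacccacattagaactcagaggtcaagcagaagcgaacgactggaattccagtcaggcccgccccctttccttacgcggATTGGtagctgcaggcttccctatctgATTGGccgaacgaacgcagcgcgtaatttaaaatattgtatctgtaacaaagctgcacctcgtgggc
CDK1, chromosome 10, 60778081 to 60778330, plus strand, TTTGAA and CCAAT: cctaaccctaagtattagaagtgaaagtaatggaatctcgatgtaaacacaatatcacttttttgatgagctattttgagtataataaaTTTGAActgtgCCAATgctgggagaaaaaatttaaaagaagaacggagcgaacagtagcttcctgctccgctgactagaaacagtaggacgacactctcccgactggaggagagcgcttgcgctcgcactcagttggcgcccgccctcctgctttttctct

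E2F2, an activating E2F factor, stood at 4.16 and 4.75 CPM after FLASH siRNA and at 1.73 and 1.45 CPM after SLBP siRNA (1.48, SE 0.34, adjusted p = 0.0083). KIF20A stood at 47.7 and 50.7 CPM against 18.2 and 20.5 CPM, and CDK1 at 113 and 104 CPM against 50.1 and 38.3 CPM. In each of the 3 genes both FLASH siRNA libraries were above both SLBP siRNA libraries.

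Genes that package and copy chromatin passed in part. Of 28 histone chaperones and chromatin assembly factors, 13 (46.4%) were higher and 0 lower after FLASH siRNA (median 0.35), against 15.3% and 10.8% of all genes. The higher count was 9 to 13 when single libraries were left out and 7 in the fit to the 4 libraries alone. ASF1B, the H3-H4 chaperone of proliferating cells and also an S phase list member, stood at 97.9 and 79.2 CPM against 34.6 and 25.9 CPM (1.55, SE 0.23, adjusted p = 0.000807). The largest subunit of chromatin assembly factor 1, CHAF1A, stood at 72.6 and 72.2 CPM against 34.1 and 32.1 CPM (1.13, SE 0.15, adjusted p = 0.000365), and HJURP, which loads the centromeric histone, differed by 1.40 (adjusted p = 0.00177). The maintenance DNA methyltransferase DNMT1 stood at 186 and 188 CPM against 86.7 and 88.5 CPM (1.096, SE 0.09, adjusted p = 3.31e-05). Its partner UHRF1 stood at 61.5 and 65.7 CPM against 20.7 and 27.4 CPM (1.40, adjusted p = 0.000751). Among histone variants, most of which have poly(A) transcripts throughout the cycle, H2AFX, whose transcripts can also end at a stem-loop (0.93, adjusted p = 0.00107), H2AFZ (0.69, adjusted p = 0.00351) and the centromeric CENPA (1.01, adjusted p = 0.000893) were higher. In all, 4 (36.4%) of 11 variant genes were higher and 2 (18.2%) lower, against 15.3% and 10.8% of all genes. The lower count fell whichever single library was left out.

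The G1 regulators split. Cyclin E2 (CCNE2) stood at 33 and 28 CPM after FLASH siRNA against 12.8 and 12.5 CPM (1.27, SE 0.15, adjusted p = 0.000235), and cyclin D3 (CCND3) at 60 and 57.2 CPM against 27 and 28.1 CPM (1.09, SE 0.12, adjusted p = 0.000186). The kinase CDK6, a partner of D cyclins, was lower after FLASH siRNA at 129 and 156 CPM against 323 and 381 CPM (-1.31, SE 0.14, adjusted p = 0.00014). In non-transfected cells CDK6 stood at 185 and 188 CPM, between both siRNAs. Of 19 G1 genes tested, 6 (31.6%) were higher and 3 (15.8%) lower, against 15.3% and 10.8% of all genes. The count of higher genes was 3 without FLASH siRNA replicate 1.

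**Figure D3:**
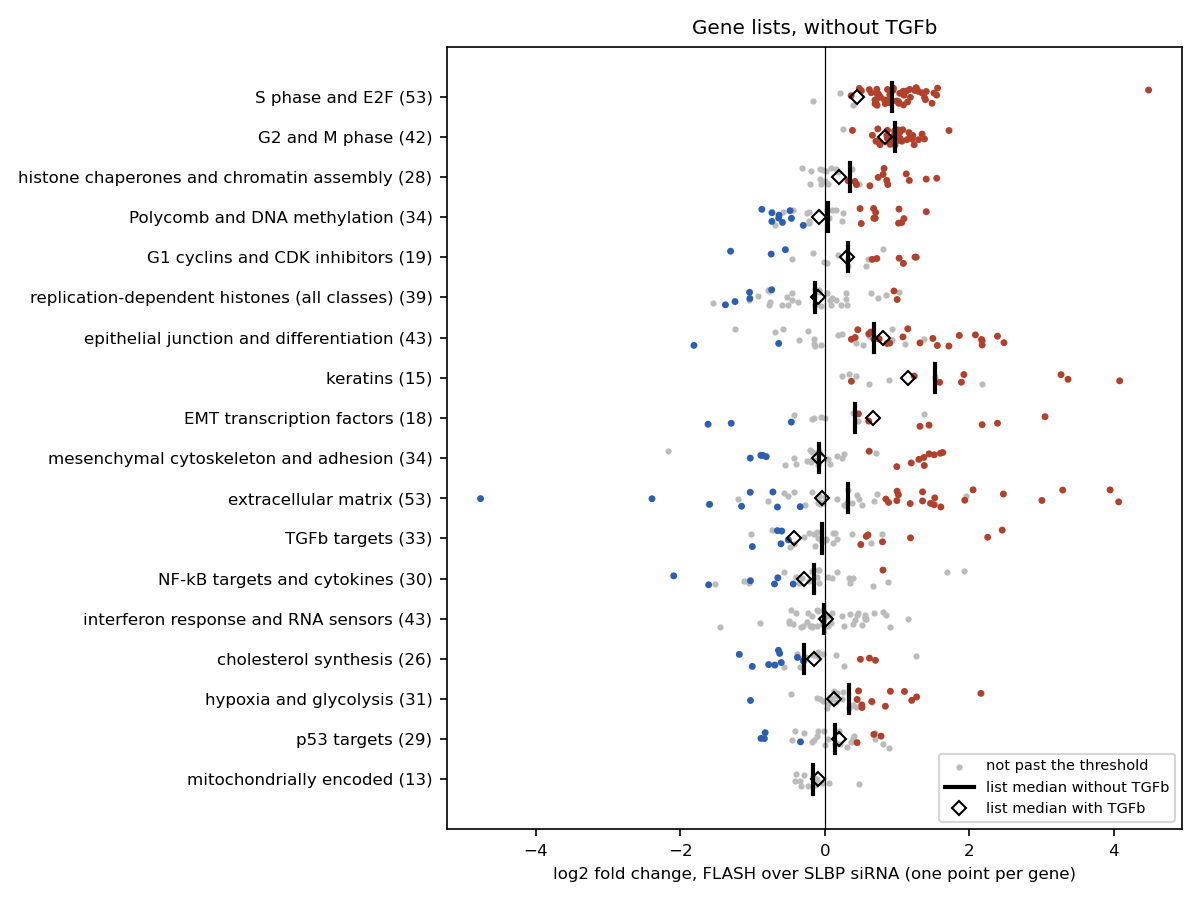
Log2 fold change of each list member (FLASH over SLBP siRNA without TGFb), with members past the threshold in red (higher) or blue (lower), the list median as a black bar and the median with TGFb as an open diamond; the number of members tested is in brackets. S phase and G2 and M phase genes lie almost wholly to the right of 0 (medians 0.93 and 0.98), histones lie around 0 (median -0.13), and matrix genes reach from -4.77 to 4.07.

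Many but not all epithelial genes were higher after FLASH than after SLBP siRNA. Of 43 genes of epithelial junctions and differentiation, 22 (51.2%) were higher, 2 (4.65%) were lower and 19 did not pass (median 0.68), against 15.3% and 10.8% of all genes. With TGFb 21 were higher and 1 lower (median 0.80), against 8.3% and 4.73% of all genes. The count of higher genes was 11 without FLASH siRNA replicate 1 and 12 in the fit to the 4 libraries alone, and 5 members were lower without SLBP siRNA replicate 1. E-cadherin (CDH1, chromosome 16, 68737225 to 68835548), the adhesion protein of epithelial junctions, stood at 38.4 and 30.8 CPM after FLASH siRNA, at 9.94 and 13.6 CPM after SLBP siRNA and at 5.39 and 7.16 CPM in non-transfected cells. The groups did not overlap, and FLASH exceeded SLBP siRNA by 1.56 (SE 0.18, adjusted p = 0.000196). With TGFb CDH1 stood at 18.4 and 19.2 CPM against 3.36 and 2.85 CPM (2.60, adjusted p = 4.58e-05).

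The related transcription factors OVOL1 and OVOL2 were higher as well. OVOL1 stood at 5.17 and 4.64 CPM against 0.945 and 0.918 CPM (2.39, SE 0.34, adjusted p = 0.000557), and OVOL2 at 2.59 and 2.17 CPM against 0.685 and 0.353 CPM (2.18, SE 0.35, adjusted p = 0.00127). Both repress mesenchymal programmes, and both were also higher with TGFb (1.99 and 3.22). The desmosome plaque protein PKP2 stood at 11.9 and 10.3 CPM against 2.8 and 2.08 CPM (2.18, adjusted p = 0.000176), and the tight junction protein MARVELD3 at 2.2 and 2.95 CPM against 0.489 and 0.423 CPM (2.48, adjusted p = 0.000807).

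Keratins, the intermediate filaments of epithelia, were higher in 8 (53.3%) of 15 genes and lower in 0 (median 1.52), against 15.3% and 10.8% of all genes. With TGFb they were higher in 7 and lower in 0, against 8.3% and 4.73% of all genes. The count was 5 without FLASH siRNA replicate 1. KRT81 stood at 13.2 and 13.2 CPM after FLASH siRNA against 4.37 and 2.54 CPM after SLBP siRNA (1.93, SE 0.27, adjusted p = 0.000499). KRT80 stood at 263 and 230 CPM against 132 and 76.7 CPM (1.24, SE 0.23, adjusted p = 0.00269), and KRT15 at 16.7 and 13.3 CPM against 4.24 and 3.85 CPM (1.89, adjusted p = 0.00215).

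Mesenchymal markers did not move as a block. N-cadherin (CDH2), which replaces CDH1 in the mesenchymal state, was lower after FLASH siRNA at 47 and 55.6 CPM against 78.8 and 111 CPM (-0.89, SE 0.17, adjusted p = 0.00342), and at 132 and 120 CPM against 231 and 276 CPM with TGFb. Vimentin (VIM), the mesenchymal intermediate filament, stood at 1464 and 1607 CPM against 1799.8 and 1536 CPM, and its groups overlapped (-0.12, SE 0.12, adjusted p = 0.513). SOX4, a transcription factor of the TGFb response, was lower at 50.6 and 70.1 CPM against 147 and 223 CPM (-1.62, SE 0.30, adjusted p = 0.00275). FSTL1, a secreted glycoprotein of mesenchymal cells, was higher at 62.1 and 52.9 CPM against 18.4 and 18.7 CPM (1.63, SE 0.17, adjusted p = 9.79e-05). Of 34 mesenchymal genes 10 (29.4%) were higher and 4 (11.8%) lower (median -0.07), against 15.3% and 10.8% of all genes. Both counts fell without FLASH siRNA replicate 1, and the lower count fell without FLASH or SLBP siRNA replicate 2.

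For the other EMT genes the calls changed when single libraries were left out, which leaves a single library in that group. Of 18 EMT transcription factors 7 (38.9%) were higher and 3 (16.7%) lower, against 15.3% and 10.8% of all genes. Both counts fell without FLASH siRNA replicate 1 or 2 or SLBP siRNA replicate 2. Fibronectin (FN1) stood at 65.4 and 62.5 CPM after FLASH siRNA and 19.9 and 36.5 CPM after SLBP siRNA (1.18, adjusted p = 0.0224). It no longer passed without SLBP siRNA replicate 1 (0.81) or without either FLASH siRNA replicate (1.13 and 1.21). ZEB1, a repressor of CDH1, stood at 37.9 and 41.7 CPM against 60.4 and 49.3 CPM (-0.46, adjusted p = 0.0123), and was lost without FLASH siRNA replicate 1 (-0.42) or SLBP siRNA replicate 1 (-0.31). SNAI1, another such repressor, stood at 22.4 and 21.6 CPM against 17 and 14.9 CPM (0.46, adjusted p = 0.0363), and was lost without FLASH siRNA replicate 1 (0.42) or 2 (0.49) and without SLBP siRNA replicate 2 (0.37). SNAI2 stood at 1.41 and 1.29 CPM against 0.848 and 0.176 CPM, and did not pass (1.37, adjusted p = 0.187), though it did at 2.90 without SLBP siRNA replicate 1.

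The genes highest over SLBP siRNA, among those of at least 5 CPM, were low in non-transfected cells for the most part. After SLBP itself came TNS1 (chromosome 2, 217799588 to 218033982), which encodes tensin 1, a link between integrins and the cytoskeleton. It stood at 23.8 and 18.5 CPM after FLASH siRNA, at 2.58 and 1.84 CPM after SLBP siRNA and at 0.0357 and 0.0762 CPM in non-transfected cells. Both siRNAs thus stood above the non-transfected libraries, and FLASH siRNA stood 9.55-fold above SLBP siRNA (3.25, SE 0.24, adjusted p = 2.74e-05). KIAA0040 followed at 16.5 and 19.7 CPM against 2.31 and 1.66 CPM (3.18, adjusted p = 8.02e-05), and CRTAC1, a secreted protein of cartilage, at 9.09 and 9.39 CPM against 1.11 and 1.24 CPM (2.98, adjusted p = 0.000147).

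The rest of the 12 highest genes belong to different pathways. They are the orphan receptor GPR50 (2.97), the membrane protein LRRC15 (2.94), the vascular endothelial growth factor receptor FLT1 (2.86), the neuronal protein DPYSL5 (2.85), the prostaglandin transporter SLCO2A1 (2.78), the mitochondrial adenylate kinase AK4 (2.67), the inner ear cadherin CDH23 (2.64) and the endocytic adaptor PACSIN1 (2.56). Their adjusted p ran from 3.31e-05 for LRRC15 to 0.0015 for DPYSL5. FLT1 stood at 12.3 and 12.5 CPM against 1.83 and 1.59 CPM, and at 0.0714 and 0 CPM in non-transfected cells. In AK4 and CDH23 the non-transfected levels (3.71 and 2.28 CPM, 1.86 and 1.33 CPM) lay near those after SLBP siRNA.

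At the other end, most of the lowest genes stood high after SLBP siRNA and near the non-transfected level after FLASH siRNA. COL3A1 (chromosome 2, 188974320 to 189012746), the chain of fibrillar collagen III, stood at 3.65 and 6.04 CPM after FLASH siRNA, at 55.1 and 210 CPM after SLBP siRNA and at 1.54 and 4.65 CPM in non-transfected cells. The SLBP siRNA libraries were far above the others and differed from each other, and the log2 fold change was -4.77 (SE 0.71, adjusted p = 0.000751). With TGFb COL3A1 stood at 8.69 and 7.71 CPM against 133 and 308 CPM (-4.74, adjusted p = 0.00156). COL3A1 is also a marker of stellate cells and fibroblasts. The summed level of that marker list, of which 12 of 14 genes were tested, was 67 to 68.4 CPM after FLASH siRNA, 85.2 to 261 CPM after SLBP siRNA and 8.75 to 14.4 CPM in non-transfected cells. COL3A1 carried this sum, which without it was 63.3 and 62.4 CPM after FLASH siRNA, 30.1 and 51.3 CPM after SLBP siRNA and 7.21 and 9.79 CPM in non-transfected cells, so that its direction turned. Of the 12 tested genes, 4 (33.3%) were higher and 2 (16.7%) lower after FLASH siRNA, against 15.3% and 10.8% of all genes. The proteoglycan LUM moved with COL3A1, at 0.0392 and 0.442 CPM against 1.27 and 1.34 CPM, and DCN stood at 0.118 and 0.184 CPM against 0.391 and 0.565 CPM without passing. The growth factor receptor PDGFRA, at 1.65 and 1.66 CPM against 0.619 and 0.529 CPM, and the smooth muscle actin ACTA2, at 6.12 and 4.72 CPM against 2.25 and 2.47 CPM, went the other way. PDGFRA did not pass in DESeq2 (1.52, adjusted p = 0.0633). Its call in edgeR's test was lost whichever single library was left out (1.41 to 1.63). The part of other cells in the COL3A1 result was not tested.

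The type II cadherin CDH10 stood at 0.706 and 0.847 CPM after FLASH siRNA against 9.1 and 23.9 CPM after SLBP siRNA (-4.40, SE 0.66, adjusted p = 0.000791). CDH18, another type II cadherin, stood at 1.25 and 1.73 CPM against 6.13 and 16.4 CPM (-2.91, adjusted p = 0.00201). The ephrin receptor EPHA5 stood at 1.69 and 2.54 CPM against 12.6 and 30.7 CPM (-3.35, adjusted p = 0.00187), and the synapse organizer CBLN2 at 1.45 and 2.87 CPM against 8.25 and 20.6 CPM (-2.73, adjusted p = 0.00281). In all 4 the second SLBP siRNA library was more than 2-fold above the first, and all 4 were also lower with TGFb.

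Other genes at this end were the esterase BCHE and the collagen COL21A1. BCHE stood at 2.04 and 2.65 CPM against 11.1 and 23.8 CPM (-2.89, SE 0.34, adjusted p = 0.00023), and COL21A1 stood at 4.63 and 7.44 CPM against 22.6 and 60.6 CPM (-2.78, adjusted p = 0.00358). RP11-206M11.7 stood at 2.78 and 2.87 CPM against 17.6 and 22.1 CPM (-2.81, adjusted p = 0.000609) and at 0 and 0.0762 CPM in non-transfected cells, so both siRNAs stood above those. The Slit receptor ROBO2 (-3.27), the adhesion protein CADM2 (-3.04) and THSD7A (-2.71) were lower too. Without FLASH siRNA replicate 1 they did not pass (-2.98, -2.65 and -2.56), and without SLBP siRNA replicate 2 CADM2 did not pass (-2.04) and THSD7A was at -1.65.

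**Figure D4:**
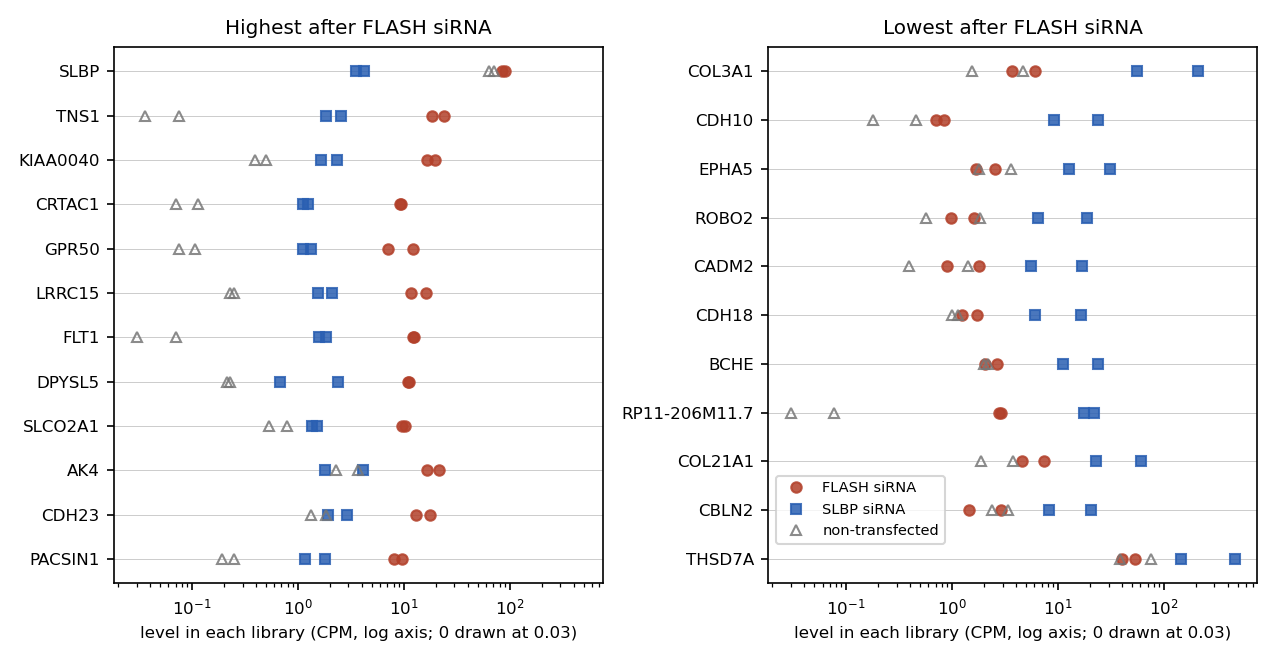
Level of the highest and lowest genes named in the text in each library without TGFb (CPM, log axis), as circles for FLASH siRNA, squares for SLBP siRNA and triangles for non-transfected cells. The FLASH and SLBP siRNA libraries do not overlap in any of these genes, which the choice of genes required; most of the lowest genes have FLASH siRNA near the non-transfected level, as for BCHE at 2.04 and 2.65 CPM against 2 and 2.17 CPM.

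Extracellular matrix genes spread to both ends. Of 53 genes 19 (35.8%) were higher and 8 (15.1%) lower after FLASH siRNA (median 0.32), against 15.3% and 10.8% of all genes. With TGFb 5 were higher and 8 lower (median -0.04), against 8.3% and 4.73% of all genes. Without single libraries the higher count stayed at 16 to 19, while the lower count was 1 without FLASH siRNA replicate 1, 3 without FLASH siRNA replicate 2 and 1 without SLBP siRNA replicate 2. Beside COL3A1, the proteoglycan lumican (LUM, -2.39) and the collagens COL4A5 (-1.59) and COL5A2 (-1.15) were lower. Nidogen 2 (NID2), a basement membrane link, was higher at 3.76 and 3.13 CPM against 0.359 and 0.0706 CPM (3.95, SE 0.59, adjusted p = 0.00125), as was the membrane collagen COL13A1 at 5.88 and 7.15 CPM against 1.11 and 0.494 CPM (3.01, adjusted p = 0.00106). Fibulin 5 (FBLN5), which helps to assemble elastic fibres, stood at 3.37 and 2.14 CPM against 0.489 and 0.494 CPM (2.47, adjusted p = 0.000193). The protease inhibitor TIMP3 stood at 8.74 and 7.48 CPM against 1.73 and 1.66 CPM (2.26, adjusted p = 0.00159). It belongs to the list of matrix metalloproteinases and their inhibitors, in which 7 (31.8%) of 22 genes were higher and 2 (9.09%) lower. The higher count there was 4 and 2 without FLASH siRNA replicates 1 and 2 and 5 and 3 without SLBP siRNA replicates 1 and 2, and the lower count was 3 without SLBP siRNA replicate 1 and 1 without any other single library.

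Among integrins, the matrix receptors, 6 (30%) of 20 were higher and 3 (15%) lower, against 15.3% and 10.8% of all genes. ITGA7, the laminin receptor chain of muscle, stood at 15 and 13.3 CPM against 3.78 and 4.23 CPM (1.82, SE 0.15, adjusted p = 3.75e-05), and ITGB4, the hemidesmosome chain of epithelia, at 58.1 and 51.4 CPM against 22.1 and 24.3 CPM (1.24, SE 0.19, adjusted p = 0.000807). The lower count was 1 without FLASH siRNA replicate 1 or SLBP siRNA replicate 2. MCAM, an adhesion molecule of endothelial cells and pericytes, stood at 330 and 331 CPM against 160 and 176 CPM (0.98, adjusted p = 0.000143). The defining endothelial markers PECAM1 and CDH5 were at most 0.941 CPM in all 4 libraries, while the summed endothelial and pericyte list was 466 to 485 CPM after FLASH siRNA, 267 to 276 CPM after SLBP siRNA and 239 to 249 CPM in non-transfected cells. VWF stood at 2.43 and 1.69 CPM against 1.92 and 1.02 CPM and KDR at 0.666 and 0.737 CPM against 0.359 and 0.212 CPM, and neither passed. Of the 11 tested genes 3 (27.3%) were higher and 0 lower, against 15.3% and 10.8% of all genes. The higher ones were MCAM, FLT1 and the junction protein ESAM at 18.5 and 13.8 CPM against 7.27 and 3.46 CPM. The part of such cells in the MCAM and FLT1 results was not tested.

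Of the signalling lists, NF-kB targets and cytokines had 6 (20%) lower and 1 (3.33%) higher of 30 genes (median -0.14). Of all genes, 10.8% were lower and 15.3% higher. Leaving out FLASH siRNA replicate 2 left 2 lower and 0 higher, leaving out FLASH or SLBP siRNA replicate 1 left 4 lower, and 3 were higher without SLBP siRNA replicate 1. The macrophage growth factor CSF1 stood at 54.5 and 75.2 CPM after FLASH siRNA, at 217 and 336 CPM after SLBP siRNA and at 90.7 and 161 CPM in non-transfected cells. The groups did not overlap, with FLASH siRNA lowest (-2.09, SE 0.27, adjusted p = 0.000386). The chemokine CXCL1 stood at 3.41 and 2.1 CPM against 8.51 and 8.29 CPM (-1.61, adjusted p = 0.00364). The leukocyte marker list summed to 102 to 121 CPM after FLASH siRNA, 30.4 to 78.1 CPM after SLBP siRNA and 61.2 to 123 CPM in non-transfected cells, most of it CD68, while PTPRC, CD3E and LYZ were at most 0.274 CPM in the 4 libraries. Of its 5 tested genes 3 (60%) were higher after FLASH siRNA, against 15.3% of all genes. They include the monocyte receptor CD14 at 2.51 and 2.51 CPM against 0.717 and 0.953 CPM and the CSF1 receptor CSF1R at 3.41 and 2.06 CPM against 0.815 and 0.918 CPM. Their calls were lost when some single libraries were left out, with CD14 at 1.39 to 1.58 and CSF1R at 1.23 to 1.74. CSF1R also did not pass in edgeR's fit to the 4 libraries alone (1.63, adjusted p = 0.051). The part of such cells in these results was not tested.

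Interferon response genes and RNA sensors, which double-stranded RNA can induce, had 0 of 43 members past the threshold between both siRNAs (median -0.01). At an unadjusted p under 0.05 there were 5, and DESeq2 called 1. Without SLBP siRNA replicate 1, 4 were higher, and without SLBP siRNA replicate 2, 1 was higher and 2 lower. The medians moved with the library left out, from -0.32 without SLBP siRNA replicate 2 to 0.72 without SLBP siRNA replicate 1. The 13 mitochondrially encoded genes likewise had 0 past the threshold in edgeR's test (median -0.16), with 4 at an unadjusted p under 0.05 and 1 in DESeq2, with 2 lower without SLBP siRNA replicate 1.

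Metabolic lists differed in direction. Of 26 cholesterol synthesis genes 9 (34.6%) were lower and 3 (11.5%) higher after FLASH siRNA (median -0.29), against 10.8% and 15.3% of all genes. The lower count fell without either FLASH siRNA replicate, and the higher count fell whichever library was left out. MSMO1, a sterol demethylating oxidase, stood at 21.8 and 22.5 CPM against 42.1 and 46.8 CPM (-1.005, SE 0.11, adjusted p = 0.00016), and at -0.78 with TGFb. Of 31 hypoxia and glycolysis genes 11 (35.5%) were higher and 1 (3.23%) lower (median 0.33), against 15.3% and 10.8% of all genes. The higher count fell without FLASH siRNA replicate 1. P4HA2, a collagen prolyl hydroxylase, stood at 50.8 and 50 CPM against 21.1 and 20.6 CPM (1.27, SE 0.11, adjusted p = 4.72e-05), with non-transfected cells at 45.1 and 53.8 CPM. The carbonic anhydrase CA12 stood at 7.1 and 5.93 CPM against 1.7 and 1.2 CPM (2.16, adjusted p = 0.000679). Adrenomedullin (ADM), a vasodilator peptide, was the lower member (-1.03, adjusted p = 4.43e-05).

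TGFb pathway targets had 7 (21.2%) higher and 5 (15.2%) lower of 33 genes (median -0.03), against 15.3% and 10.8% of all genes. The counts were 3 and 1 without FLASH siRNA replicate 1, 4 and 2 without FLASH siRNA replicate 2, and 5 and 3 without SLBP siRNA replicate 2. In the TGFb-treated libraries 1 of the 33 genes was higher and 9 were lower (median -0.43), against 8.3% and 4.73% of all genes. Without TGFb, SKI, a repressor of SMAD signalling, was lower at 57.1 and 64.9 CPM against 122 and 123 CPM (-1.003, SE 0.09, adjusted p = 7.91e-05). Non-transfected cells stood at 107 and 92.6 CPM. Tissue factor (F3), from the YAP and TEAD list, was higher at 5.96 and 5.23 CPM against 1.47 and 1.55 CPM (1.89, SE 0.21, adjusted p = 0.000153). Among p53 targets 3 (10.3%) were higher and 4 (13.8%) lower of 29, shares near those of all genes. DDB2, a DNA repair gene, was a higher member at 38.4 and 35.9 CPM against 24.3 and 19 CPM (0.78, SE 0.13, adjusted p = 0.00177). BBC3 was a lower member at 7.57 and 6.15 CPM against 13.7 and 10.8 CPM (-0.84, SE 0.19, adjusted p = 0.00664). BBC3 did not pass in edgeR's fit to the 4 libraries alone (-0.86, adjusted p = 0.0632) or without FLASH siRNA replicate 2 (-0.69). That list depended on single libraries, with 7 higher without SLBP siRNA replicate 1, 1 higher and 1 lower without FLASH siRNA replicate 1, 0 lower without FLASH siRNA replicate 2 and 2 lower without SLBP siRNA replicate 2.

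Among other lists, Polycomb and DNA methylation genes had 12 (35.3%) higher and 9 (26.5%) lower of 34 (median 0.04), against 15.3% and 10.8% of all genes. The lower count fell without FLASH siRNA replicate 1 or 2 or SLBP siRNA replicate 2. The higher count fell without FLASH siRNA replicate 1. HELLS, a chromatin remodeller needed for DNA methylation, stood at 75.6 and 79 CPM after FLASH siRNA against 35.9 and 38 CPM after SLBP siRNA (1.07, SE 0.19, adjusted p = 0.00216). Of 35 genes of the unfolded protein and amino acid stress responses 4 (11.4%) were higher and 6 (17.1%) lower. Leaving out SLBP siRNA replicate 1 gave 11 higher there, and leaving out FLASH siRNA replicate 2 gave 3 lower. SHMT2, the mitochondrial enzyme that makes glycine from serine, was a higher member at 124 and 111 CPM against 68.6 and 56.5 CPM (0.91, SE 0.11, adjusted p = 0.000207). CRELD2 was a lower member at 20.7 and 20.3 CPM against 30.7 and 46.8 CPM (-0.92, SE 0.18, adjusted p = 0.00317). CRELD2 did not pass in edgeR's fit to the 4 libraries alone (-0.95, adjusted p = 0.0572). Apoptosis genes had 3 (7.89%) higher and 1 (2.63%) lower of 38, both shares below those of all genes. The higher count fell without FLASH siRNA replicate 1 and rose without SLBP siRNA replicate 1. The survival gene BCL2L2 was the lower one, at 35.6 and 30.8 CPM against 70 and 54.2 CPM (-0.90, SE 0.16, adjusted p = 0.00177).

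The called genes also differed in what they are. Among protein-coding genes whose longest transcript had under 40% GC, 11.2% were higher and 19.3% lower after FLASH siRNA, and between 55% and 60% GC the shares were 21.5% and 7.43%. Of the genes spanning over 300 kb, 14.6% were higher and 21.5% lower, against 14.7% and 10.6% of those under 10 kb. GC content and span go together, so both were crossed. Genes over 100 kb with 55% GC or more were higher in 26.7% and lower in 6.61%, whereas genes over 100 kb with under 45% GC were higher in 12.3% and lower in 21.3%. Genes under 0.1 CPM in non-transfected cells were higher in 34.2% and lower in 2.55%, while genes over 100 CPM were higher in 9.53% and lower in 17.5%. A gene silent in non-transfected cells passed the filter only through another group. Between 24057 and 24124 genes had counts in the FLASH siRNA libraries, 23108 to 23540 in the SLBP siRNA libraries and 21177 to 21355 in the non-transfected libraries. With TGFb the GC classes ran the same way, with 6.34% higher and 7.84% lower under 40% GC and 11% and 3.99% between 55% and 60%.

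**Figure D5:**
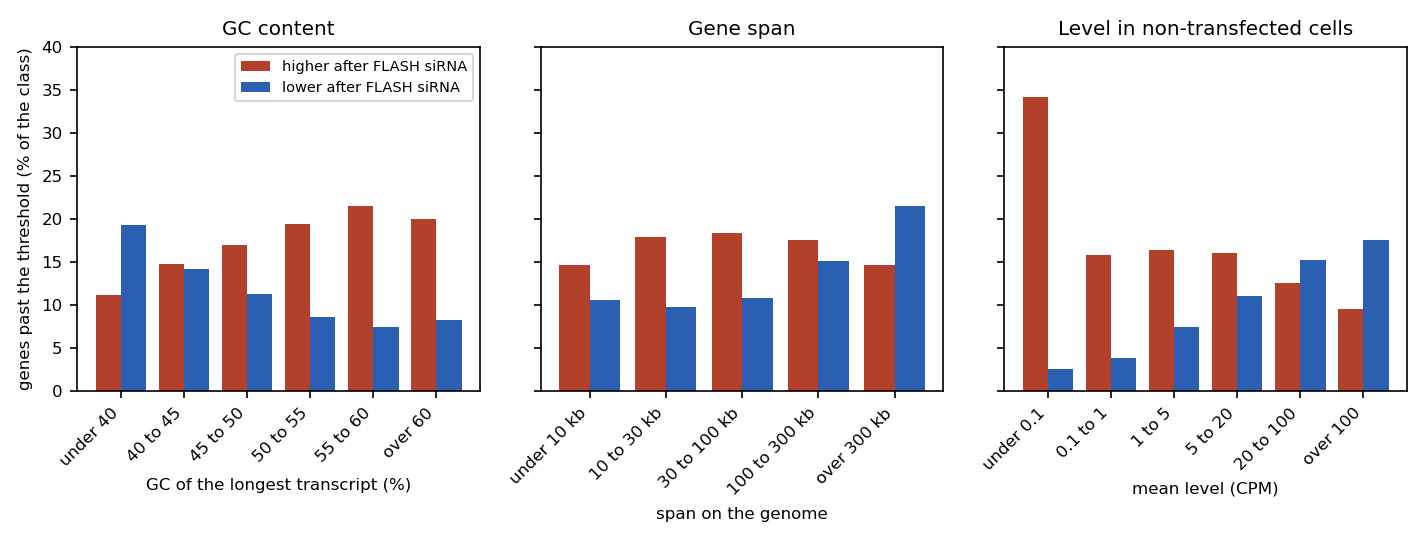
Share of genes past the threshold in each class (percent of the class, axis from 0), higher after FLASH siRNA in red and lower in blue, by GC content and genomic span of protein-coding genes and by mean level in non-transfected cells over all tested genes. The red bars exceed the blue ones at high GC (21.5% against 7.43% between 55% and 60%) and at the lowest level (34.2% against 2.55%), and fall below them under 40% GC, over 300 kb and above 20 CPM.

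TGFb changed the difference between both siRNAs in few genes. The interaction of siRNA and TGFb passed for 24 genes (0.135%), 2 positive (0.0113%; ADM at 0.84 and the prostaglandin receptor PTGER4 at 1.39) and 22 negative (0.124%). ITGA11, a collagen receptor chain, stood at 1.41 and 1.92 CPM after FLASH siRNA against 0.196 and 0.282 CPM after SLBP siRNA without TGFb, and at 11.9 and 12.6 CPM against 22.4 and 49 CPM with TGFb. Its order thus turned, from 2.79 to -1.54 (interaction -4.33, adjusted p = 0.0199). MAMDC2, a matrix protein, turned from 1.18 to -1.35 and the desmosome protein PKP1 from 1.62 to -0.89, while TNS1 kept its direction at a smaller size with TGFb (3.25 and 1.11). The number of interactions was not stable. It was 0 without FLASH siRNA with TGFb replicate 1, 2 and 9 without FLASH siRNA replicates 1 and 2, 50 and 3 without SLBP siRNA replicates 1 and 2, 7 without FLASH siRNA with TGFb replicate 2, and 4 without SLBP siRNA with TGFb replicate 2.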

How the data were processed

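RNA from 16 PANC-1 libraries, 2 in each of 8 groups, was purified with RNeasy columns and made into TruSeq Stranded mRNA libraries, which select poly(A) RNA, per the labels' protocols. The build GRCh38.p10 and the tools RSEM 1.2.31 and STAR 2.4.2a are named, with no role given, in the submitters' processing notes. The authors deposited expected counts, TPM and a transcript length per gene and library; expected counts share reads that map to several genes. The strand setting of the counting is not given in the sources used here. FPKM and effective lengths (32 columns) stayed out.

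Expected counts were rounded to whole numbers. The edgeR (4.0.16) function filterByExpr kept 17743 genes, and scaling was by TMM. The quasi-likelihood fit took the 16 libraries together with a mean for each group, which left 8 residual degrees of freedom. P-values were adjusted by Benjamini-Hochberg over these 17743 genes. The SE is the log2 fold change divided by the square root of F. Counting error was not computed separately. TPM served only for histone sums. Positions, spans and GC content came from GENCODE release 29 (17695 genes matched), promoters from RefSeq (GRCh38.p14). The fit was tested on simulated data.

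The comparison, the 38 gene lists and the rule for named genes were chosen with earlier results of these data known. The rule took the siRNA targets and NPAT, the 12 highest and 12 lowest called genes of at least 5 CPM without overlap, 7 EMT genes, up to 4 called members of each list with at least 1 CPM, the 8 histone genes of highest level, and the largest interactions; not every gene it took is printed, 1 of the lowest genes is not reported here, and further list members were named after their values were seen. Alternatives were another scaling (RLE), DESeq2 1.42.0, no filter, a filter of at least 1 CPM in 2 of the 4 libraries, the 4 libraries alone, a replicate block, and leaving out each library.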

Additional observations from a re-analysis of the deposited data

Results flagged for a closer look

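The difference between FLASH and SLBP siRNA itself differed with TGFb, by edgeR's test of the interaction, in 24 genes. In the 8 named here the FLASH over SLBP value was smaller with TGFb than without. The change (log2, with minus without TGFb) was -4.33 for ITGA11, -2.54 for MAMDC2, -2.51 for PKP1, -2.46 for the membrane protein NKAIN4, -2.45 for FBLN5, -2.26 for LRRC15, -2.15 for TNS1 and -2.00 for SLCO2A1, with adjusted p from 0.0199 to 0.0312. NKAIN4 went from 1.53 and 1.69 CPM against 0.293 and 0.494 CPM without TGFb to 22.1 and 17.4 CPM against 25.3 and 27.8 CPM with it. FBLN5 went from 2.47 to 0.02, and LRRC15 and SLCO2A1 stayed higher after FLASH siRNA (0.69 and 0.79). Each of the 8 lost its call in edgeR's test when at least 1 library was left out, and none changed sign.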

How the results depend on the processing

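The total of 4642 genes was 1865 to 4700 when single libraries were left out, the higher genes 1227 to 2635 and the lower genes 638 to 2065. In the fit to the 4 libraries alone they were 1633, 1137 and 496. With the replicate number as a block the lower genes were 3073 and the total 6931. Replicate numbers are the labels' own and nothing says what they pair; same-numbered libraries deviated together with r = 0.35 for FLASH and SLBP siRNA and 0.064 to 0.679 over the 28 pairs of groups, 25 of them over 0.1, so pairing is not shown for all. With TGFb the total was 4518 with the replicate block and 420 to 1519 without single libraries. The 24 interactions became 112 with DESeq2, 126 with the replicate block and 0 to 50 without single libraries. Replication-dependent histones had 4 higher and 8 lower members with no filter on low counts, 1 and 2 in the 4 libraries alone, 4 and 9 with the replicate block, and 1 to 4 higher and 1 to 6 lower without single libraries. Epithelial genes had 12 higher in the 4 libraries alone, 11 to 24 without single libraries, and 5 lower with no filter (2 to 5 without single libraries). HIST2H2BE turned from 0.08 to -0.28 without SLBP siRNA replicate 1 and was at 0.55 without replicate 2. The S phase and the G2 and M phase counts stayed within 1.5 times under every alternative run. Of 141 named genes past the threshold, 82 passed under every alternative with a value, 59 were lost under at least 1, 54 of them without a single library, and 0 changed sign. Scaling by RLE kept 4601 and DESeq2 4300 of the 4642 calls. Precision is limited by 2 libraries a group; depth was not varied.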

Other observations

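Some gene families stood out by symbol, chosen after their values were seen and so given without a test of the family. Pregnancy-specific glycoprotein genes (PSG) are normally expressed in the placenta. Of 9 tested, 5 (55.6%) were higher and 0 lower after FLASH siRNA, against 15.3% and 10.8% of all genes. PSG6 and PSG8 were at no more than 0.0652 CPM after SLBP siRNA and at 0 CPM in non-transfected cells. They may thus have passed the filter on low counts only through other groups. PSG9 stood at 15.6 and 12.5 CPM after FLASH siRNA, at 3.81 and 1.59 CPM after SLBP siRNA and at 0.214 and 0.228 CPM in non-transfected cells (2.37, adjusted p = 0.000695 in edgeR's test). These genes are near-identical copies, so reads may be divided among them. Of 32 clustered protocadherin genes 0 were higher and 9 (28.1%) lower, against 15.3% and 10.8% of all genes. Among those above 1 CPM, PCDHB13 led at 0.666 and 0.626 CPM against 1.47 and 3.74 CPM. With TGFb 0 of the protocadherin genes passed in either direction. Of 41 HOX genes and HOX antisense RNAs 0 were higher and 6 (14.6%) lower, against 15.3% and 10.8% of all genes. The lower share was thus near that of all genes. In the TGFb-treated libraries 7.32% of the HOX set were higher and 0 lower (median 0.13), against 8.3% and 4.73% of all genes. HOXC8, a body patterning factor, stood at 15.9 and 21.4 CPM against 37.4 and 43.2 CPM (-1.11, adjusted p = 0.00274), and HOXC10 at 60.4 and 71.7 CPM against 101 and 159 CPM (-0.98, adjusted p = 0.00588). In non-transfected cells both lay between, or near SLBP siRNA, at 21.7 and 27.8 CPM for HOXC8 and 102 and 121 CPM for HOXC10.

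Of 17 CDH genes tested 6 (35.3%) were higher and 8 (47.1%) lower, against 15.3% and 10.8% of all genes. The lower ones were CDH2, CDH17, CDH7, CDH9, CDH10, CDH12, CDH18 and CDH19, and the higher ones were CDH1, CDH3, CDH11, CDH15, CDH23 and CDH24. CDH7, CDH9 and CDH12 were at 0 CPM in non-transfected cells and at no more than 0.626 CPM after FLASH siRNA. They may have entered the test mainly through SLBP siRNA cells. Of 834 antisense RNAs of the annotation, 9.23% were lower and 4.2% higher, where 10.8% of all genes were lower and 15.3% higher. Without the strand setting of the counting, reads of an antisense RNA and of the gene across from it cannot be told apart.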
